A study of Mus musculus with 24 samples.

Results

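The subject is the change in bound RNA between kidneys taken 2 days after bilateral ischemia-reperfusion injury and kidneys of sham mice, over all genes of the deposited RPKM table. Of its 40750 genes, 13721 reached 1 RPKM in at least 3 of 24 libraries and were tested, and the comparison rests on 6 of the 24 libraries, 3 per group. RPKM is the number of reads of a gene scaled to its length and to the total reads of the library.

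The study followed the proximal tubule through injury and repair by translating ribosome affinity purification, in which an antibody against GFP pulls ribosomes that carry EGFP-L10a out of a kidney homogenate together with the RNA bound to them. The day 2 mice had both renal pedicles clamped for 20 minutes, and the sham mice had the same surgery without the clamp. Mice of both groups were male, 8 to 10 weeks old, of mixed background, heterozygous for Kim1-GCE and EGFPL10a, and all received tamoxifen 6 hours before and 24 hours after surgery. The material left after the pull-down, which the submitters treat as total kidney, gave unbound RNA of the same mice, and other mice were taken at day 7 and day 14. Libraries of 1 group came from separate mice.

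Kim1 is another name of Havcr1, a surface protein that tubule cells make after injury and hardly make before it. The tag is tied to that gene, so which cells carry it can itself change with injury. A change in bound RNA may come from other cells carrying the tag or from other expression in the same cells, and the design cannot tell these apart. As in any bulk sample, fewer cells of a type and less RNA per cell cannot be told apart either. The proximal tubule normally reabsorbs most of what the glomerulus filters and burns fatty acids and amino acids to pay for it. After ischemia, surviving tubule cells lose this character for a time, spread over the bare basement membrane, take on genes of injury and divide.

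Depth inferred from the spacing of low values was 17050000 to 24650000 reads in the 6 libraries. Across genes the libraries of day 2 correlated with each other at r = 0.951, 0.907 and 0.947, and those of sham at 0.972, 0.929 and 0.930. Gm42418, a gene that overlaps ribosomal RNA sequence, stood at 10010 ± 7067 RPKM at day 2 and 3404 ± 1458 RPKM in sham (SD, n = 3 each). Markers of proximal tubule were present in all bound libraries but were not what set them apart from unbound RNA of the same mice. In sham, all 12 podocyte markers and 7 of 11 principal cell markers were higher in bound than in unbound RNA, where 14.6% of all tested genes were, and none of the 20 proximal tubule markers was. Instead 4 of 10 markers of the S1 segment and 5 of 10 of the S3 segment were lower in bound RNA, where 12.9% of all tested genes were. With each mouse as a block, these counts were 12, 9, 0, 5 and 8, among 40.4% of tested genes that differed between the fractions. At day 2 the same comparison gave 4 podocyte markers higher in bound RNA (8 with the block), no principal cell marker (1), and no proximal tubule marker lower (2 of S1, 1 of S3), where 1.17% of all tested genes were higher and 0.503% lower, and 11.6% differed with the block. The material is therefore called bound RNA here and not proximal tubule RNA.

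Havcr1 checked the labels. It had 50.5, 113 and 211 RPKM at day 2, against 1.51, 1.49 and 5.61 RPKM in sham. The groups did not overlap (log2 fold 5.21, SE 0.61, adjusted p = 7.96e-06 by limma). In unbound RNA of the same mice it had 84.5, 151 and 143 RPKM at day 2 and 4.32, 3.93 and 24.1 RPKM in sham.

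A gene is said to have risen or fallen where limma gave an adjusted p under 0.05 over all tested genes, with the spread shared by 24 libraries. Fold changes are on the scale of log2 (RPKM + 0.5), which understates the change of genes of low level. In all, 2718 genes were called, 19.8% of those tested, 1829 higher (13.3%) and 889 lower (6.48%). Changes of at least 2-fold were 1192 up and 538 down, and of at least 8-fold 102 up and 21 down. In these groups bound libraries varied more than unbound ones: the median standard deviation over genes was 0.41 at day 2 and 0.38 in sham on the log2 scale, against 0.27 and 0.22 in unbound RNA. With the spread taken from the 12 bound libraries alone 1159 genes were called (8.45%; 5.77% higher and 2.67% lower), and from the 6 libraries compared 463 (3.37%; 2.78% higher and 0.598% lower). The median log2 fold over all tested genes was 0.16, and after median-ratio rescaling of the libraries -0.03; the share of calls that were higher was 67.3% as deposited and 46.6% after that rescaling, which called 21.3% of tested genes, 9.92% higher and 11.4% lower. Of the 2718 calls, 2244 were called in the same direction after rescaling and 0 in the opposite one, and 1040 stayed called whichever of the 6 libraries was left out. None of the 165 genes given with values below changed direction under median-ratio rescaling or quantile normalization.

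The 3 day 2 libraries did not change to the same extent. Among the 1829 genes that rose, library 1 of day 2 was the lowest of the 3 for 1434, or 78.4%, against 52.4% of all tested genes. Among the 889 that fell it was the highest for 648, or 72.9%, against 24.6% of all tested genes. Its unbound partner of the same number was lowest for 53.6% of the genes that rose, against 38.9% of all tested genes. That partner was highest for 54.0% of those that fell, against 24.0% of all tested genes. Leaving out bound library 1 of day 2 gave 4073 calls, while leaving out library 2 or 3 of day 2 gave 1349 and 1544.

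**Figure D1:**
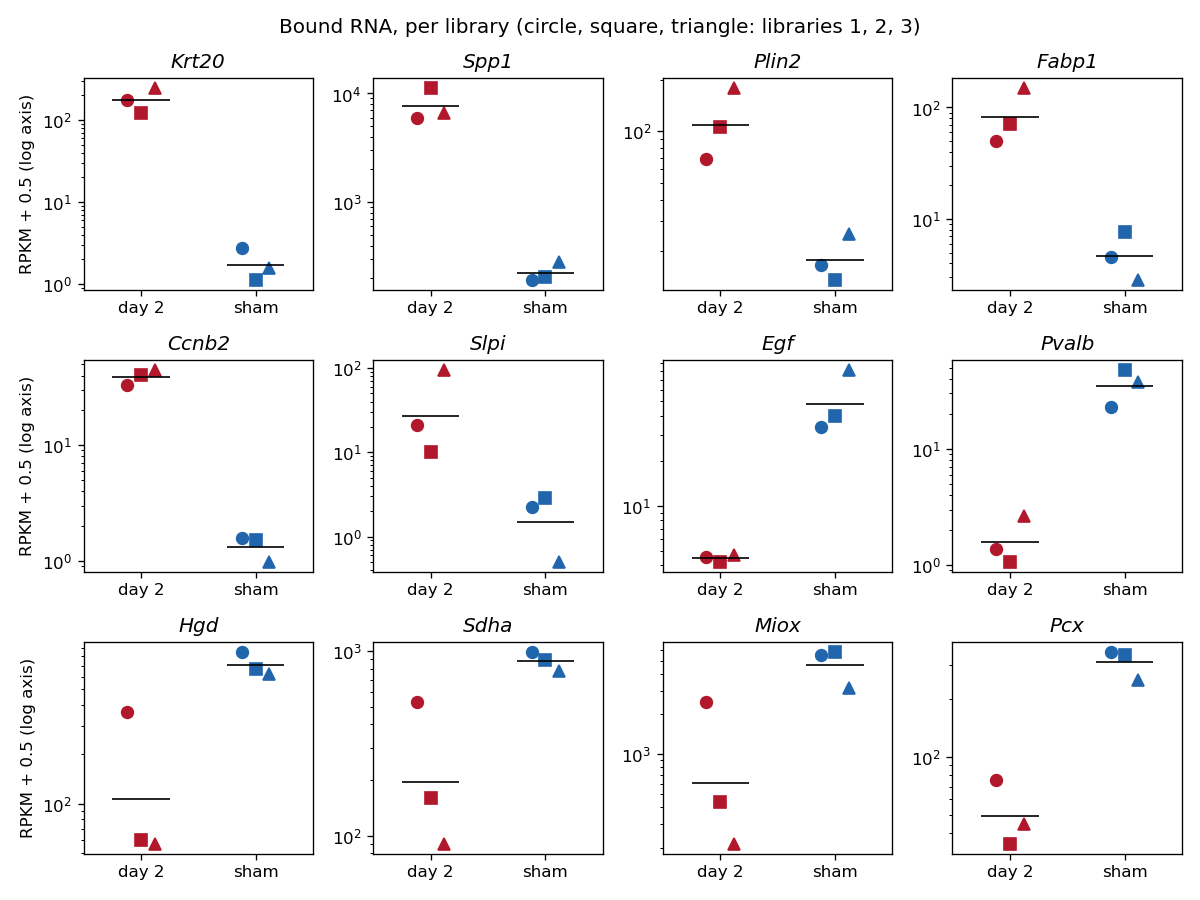
Levels of 12 genes in bound RNA, plotted on a log axis as RPKM plus 0.5, day 2 in red on the left and sham in blue on the right; each symbol is 1 library and each line the geometric mean of 3. Day 2 and sham do not overlap for any of the 12 genes, and library 1 of day 2 (circle) lies nearest to sham for Hgd, Sdha and Miox.

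By the rule for named genes, the 4 largest rises were in a keratin gene and in 3 genes of the small proline-rich family. Krt20, a keratin of the gut and bladder lining, had 173, 122.7 and 246 RPKM at day 2, against 2.26, 0.626 and 1.07 RPKM in sham (log2 fold 6.68, adjusted p = 1.42e-07). Sprr2f, of the small proline-rich family whose products are built into the cornified envelope of skin, had 46.7, 194 and 360.4 RPKM at day 2, against 1.93, 0.0707 and 0 RPKM in sham. Its neighbours Sprr2g (log2 fold 6.50) and Sprr1a (6.30) rose with it, as did the epidermal gene Crct1 (5.10). Library 3 of day 2 was the highest for Crct1 at 65.8 RPKM, against 10.3 and 7.25 RPKM in the others. Reads of the near-identical Sprr2 genes may be split among them, so their single values are uncertain. Of the 10 tested genes of the cornified envelope list 5 rose and 1 fell, where 13.3% and 6.48% of all tested genes did. The fall was in Evpl, encoding envoplakin, which had 14.8, 4.93 and 2.22 RPKM at day 2, against 37.4, 27.3 and 9.69 RPKM in sham. Its groups overlapped (log2 fold -1.86, adjusted p = 0.00695, 0.0589 with 12 bound libraries and up to 0.0605 with 1 library left out).

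Other genes among the 12 largest rises were of mixed kind. Spp1, encoding osteopontin, had 5958, 11223 and 6659 RPKM at day 2, against 193, 206 and 283 RPKM in sham, which placed it among the 5 most abundant genes of the injured bound RNA (log2 fold 5.09). S100a6, a calcium-binding protein gene, had 839.9, 1482 and 5934 RPKM at day 2, against 50.8, 46.6 and 84.3 RPKM in sham, with library 3 far above the others (log2 fold 5.05). Timp1, an inhibitor of matrix proteases (5.28), Apoc2, an activator of lipoprotein lipase (5.11), and the glutathione transferase gene Gsta1 (5.76) followed. Slpi, an inhibitor of leukocyte proteases, had 20.3, 9.59 and 94.4 RPKM at day 2, against 1.77, 2.41 and 0 RPKM in sham, and was 1 of the genes with the widest spread at day 2 (log2 fold 4.19, adjusted p = 0.000762). Another with wide spread was Sipa1l1, encoding a regulator of Rap GTPases, which had 112, 29.9 and 9.28 RPKM at day 2, against 159.7, 105 and 73.6 RPKM in sham; its groups overlapped (log2 fold -1.74, adjusted p = 0.0197, 0.113 with 12 bound libraries).

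Among keratins 6 of 10 rose and 1 fell, where 13.3% and 6.48% of all tested genes did. Their median log2 fold was 1.28 (0.16 over all tested genes). Krt19, a keratin of simple epithelium and ducts, had 85.1, 59.7 and 67.3 RPKM at day 2, against 11.4, 6.20 and 9.33 RPKM in sham (log2 fold 2.93). Of the pair made by simple epithelia, Krt8 had 321, 254 and 287 RPKM at day 2, against 154, 151 and 127 RPKM in sham (log2 fold 0.99, adjusted p = 0.0183), and Krt18 rose by 1.31 (adjusted p = 0.0246). With 12 bound libraries only 2 keratins kept the call, Krt20 and Krt19. Krt8 had adjusted p = 0.0712 there and Krt18 0.0715.

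Cells grip and move over matrix by actin, focal adhesions and integrins, and their genes rose in part. Over all tested genes 13.3% rose, and 5.77% with 12 bound libraries. Of 29 tested actin and focal adhesion genes 11 rose and none fell (median log2 fold 1.07). Of these 29 genes 8 rose with 12 bound libraries, and 6 to 14 when 1 library was left out. Flna, which encodes the actin crosslinker filamin A, had 92.4, 134 and 30.6 RPKM at day 2, against 13.7, 16.3 and 7.27 RPKM in sham (log2 fold 2.57, adjusted p = 0.00485), and the tropomyosin gene Tpm4 rose by 2.09. Actb, the main cytoplasmic actin, had 3669, 4521 and 6356 RPKM at day 2, against 528, 1848 and 4981 RPKM in sham; the groups overlapped and it did not pass (adjusted p = 0.06, log2 fold 1.48). Of 19 integrin, laminin and ligand genes 12 rose (median 1.20). Itgb1, the beta subunit shared by many integrins, had 31.1, 59.2 and 60.03 RPKM at day 2, against 12.3, 14.7 and 22.96 RPKM in sham (log2 fold 1.55), its partner Itgav rose by 1.24, and Cd44, a receptor for hyaluronan and osteopontin, had 1.73, 5.54 and 3.21 RPKM at day 2, against 0.232, 0.420 and 0.0778 RPKM in sham (log2 fold 2.33). With 12 bound libraries 6 of the 12 kept the call.

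Of 20 junction genes 3 rose and 1 fell, shares near the 13.3% and 6.48% over all tested genes. The claudin genes Cldn1, which had 5.69, 14.4 and 9.86 RPKM at day 2, against 1.03, 1.61 and 0.912 RPKM in sham, and Cldn4 (log2 fold 2.45) rose. Cdh16, the kidney-specific cadherin of mature tubule, had 123.4, 124 and 143 RPKM at day 2, against 157, 219 and 407 RPKM in sham (log2 fold -0.90, adjusted p = 0.0189, 0.0989 with 12 bound libraries). Of 16 annexin and S100 genes 5 rose, among them the membrane-binding pair S100a10 (2.11) and Anxa2 (1.88, adjusted p = 0.0147, 0.0578 with 12 bound libraries).

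Of the 40 lists other than cell type markers, those of mitosis had every tested member called. All 25 tested kinetochore and centromere genes rose, and all 35 tested genes of mitotic motors, kinases and cytokinesis, with median log2 folds of 2.67 and 2.94. The median over all tested genes was 0.16, and 13.3% of them rose. Leaving out any 1 library kept 23 to 25 and 33 to 35 of these calls, and 23 and 33 stood with 12 bound libraries. Earlier results of these data had shown the rise of mitotic genes, so the counts are a description.

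The promoters of these genes were searched for letters known from the cell cycle. The element TTTGAA, called the cell cycle homology region, and CCAAT boxes upstream of it are features of promoters that are shut in resting cells and open before mitosis. Both were searched on both strands in RefSeq promoters of GRCm38.p6 that span 250 bases before to 50 bases after each start. TTTGAA stood in 66.0% of 53 promoters of the 49 listed mitotic genes with an entry (of 60 tested), against 17.9% of all 32851 promoters, and CCAAT in 79.2% against 37.4%. Both stood in 56.6%, against 7.0% of all promoters. A match says only that the letters are there. Of the named mitotic genes with both, the 3 with the largest rise are shown so that the spacing can be seen. Capitals mark TTTGAA and CCAAT or their reverse complements TTCAAA and ATTGG, and each sequence reads 5′ to 3′ on the strand of its gene. Ccnb2, encoding cyclin B2, is at chr9:70421505-70421804 on the minus strand, Kif22, encoding a chromosome-moving kinesin, at chr7:127042371-127042670 on the minus strand, and Cdca8, encoding borealin, at chr4:124936868-124937167 on the minus strand.
Ccnb2: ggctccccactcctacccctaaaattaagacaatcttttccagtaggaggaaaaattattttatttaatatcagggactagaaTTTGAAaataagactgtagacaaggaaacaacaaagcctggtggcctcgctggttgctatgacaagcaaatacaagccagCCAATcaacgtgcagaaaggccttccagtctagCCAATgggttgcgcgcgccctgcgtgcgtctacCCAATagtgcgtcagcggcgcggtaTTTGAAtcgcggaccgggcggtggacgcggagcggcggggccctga
Kif22: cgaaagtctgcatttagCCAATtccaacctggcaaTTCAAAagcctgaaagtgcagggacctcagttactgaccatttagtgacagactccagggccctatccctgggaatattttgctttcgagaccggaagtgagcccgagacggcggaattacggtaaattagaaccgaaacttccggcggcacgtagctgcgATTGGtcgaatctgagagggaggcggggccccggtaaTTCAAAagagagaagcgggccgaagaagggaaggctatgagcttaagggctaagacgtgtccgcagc
Cdca8: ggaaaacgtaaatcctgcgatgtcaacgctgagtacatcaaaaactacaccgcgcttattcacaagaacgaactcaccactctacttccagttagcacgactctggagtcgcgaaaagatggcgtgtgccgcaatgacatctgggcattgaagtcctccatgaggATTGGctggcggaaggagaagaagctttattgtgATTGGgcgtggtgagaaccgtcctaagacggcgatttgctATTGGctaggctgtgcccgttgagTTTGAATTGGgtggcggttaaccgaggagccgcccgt
In the Cdca8 promoter a reverse CCAAT begins on the last letter of TTTGAA.

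The levels of these genes follow. Ccnb2 had 32.4, 39.98 and 44.3 RPKM at day 2, against 1.07, 1.01 and 0.474 RPKM in sham (log2 fold 4.89, adjusted p = 3.33e-06). Birc5, encoding survivin of the chromosomal passenger complex, had 19.6, 35.8 and 30.7 RPKM at day 2, against 0.218, 0.494 and 0.942 RPKM in sham (log2 fold 4.81). Kif22 had 25.6, 26.4 and 20.9 RPKM at day 2, against 1.12, 0.668 and 1.45 RPKM in sham (log2 fold 3.99). For these genes every day 2 library lay above every sham library, and library 1 did not stand apart here: among the 35 mitotic genes it was the lowest of day 2 for 15 and the highest for 8. Cdca8 rose by a log2 fold of 3.75, Cenpa, the histone variant of centromeres, by 3.35, and the kinetochore gene Cenpf by 2.77.

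Genes of DNA synthesis were counted next. Of 33 tested replication genes 28 rose and none fell (median 1.49), where 13.3% of all tested genes rose. Rrm2, which encodes the inducible subunit of ribonucleotide reductase, had 129, 90.6 and 54.3 RPKM at day 2, against 2.36, 2.66 and 12.3 RPKM in sham (log2 fold 4.15). Tk1, encoding thymidine kinase, had 27.1, 27.7 and 15.8 RPKM at day 2, against 1.42, 2.57 and 3.71 RPKM in sham (log2 fold 3.00). The replication gene Gins2 rose by 3.14 and the chromatin assembly gene Chaf1b by 2.92. Mcm2, part of the replicative helicase, had 37.8, 26.4 and 15.8 RPKM at day 2, against 11.7, 9.33 and 14.2 RPKM in sham; its rise was small (log2 fold 1.08, adjusted p = 0.0363), with adjusted p = 0.101 from 12 bound libraries and 0.0676 after median-ratio rescaling. Of 21 DNA repair genes 12 rose, among them Brca1, of homologous repair (1.72).

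Regulators of the cycle rose in 15 of 25 cases, 8 with 12 bound libraries, where 13.3% and 5.77% of all tested genes rose. Foxm1, a transcription factor of mitotic genes, had 6.63, 8.09 and 5.34 RPKM at day 2, against 0.151, 0.517 and 0.701 RPKM in sham (log2 fold 2.94). Ccne1, encoding the cyclin that starts S phase, had 5.42, 5.79 and 5.95 RPKM at day 2, against 0.278, 0.259 and 0.350 RPKM in sham (log2 fold 2.97), and the late repressor E2f8 rose by 2.15. Cdkn1a, the inhibitor of cyclin-dependent kinases known as p21, had 24.6, 75.6 and 129.5 RPKM at day 2, against 6.92, 5.15 and 2.90 RPKM in sham (log2 fold 3.59). Cdkn1a thus rose in the same libraries as the genes of division, with library 1 the lowest of day 2.

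Genes of growth and protein folding were counted too. Of 30 ribosome biogenesis genes 9 rose, with a median of 0.33, where 13.3% of all tested genes rose. With 12 bound libraries 2 rose, near the 5.77% over all tested genes in that fit, and 3 to 14 when 1 library was left out. Npm1, encoding a nucleolar chaperone, had 54.7, 95.2 and 98.1 RPKM at day 2, against 31.00, 28.4 and 39.1 RPKM in sham (log2 fold 1.28). Ncl, encoding nucleolin, rose by 1.03 (adjusted p = 0.00891, 0.051 with 12 bound libraries). Of 20 tRNA synthetase genes 2 rose, where 13.3% of all tested genes did, Vars by 1.34 among them. Of 31 chaperone genes 7 rose, and 3 with 12 bound libraries, where 13.3% and 5.77% of all tested genes rose. Bag3 rose by 1.27 and the endoplasmic reticulum gene Manf by 1.19. Of 29 proteasome genes none rose and 2 fell, Psma6 (-0.76) and Psmc3 (-0.57), where 6.48% of all tested genes fell. Neither was called with 12 bound libraries. After median-ratio rescaling 6 proteasome genes fell, where 11.4% of all tested genes did. Of 29 lysosome genes 3 rose and 2 fell, near the 13.3% and 6.48% over all tested genes. The cathepsin genes Ctsl (1.29) and Ctsb (1.10) were among the rises. After rescaling 8 lysosome genes fell, a larger share than the 11.4% over all tested genes.

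Cholesterol synthesis fell in 5 of 19 genes and rose in 1 (median -0.39), where 6.48% and 13.3% of all tested genes did. The lanosterol demethylase gene Cyp51 had 3.60, 6.77 and 7.19 RPKM at day 2, against 15.02, 22.5 and 19.04 RPKM in sham (log2 fold -1.64), and Nsdhl, of a later step, fell by 1.09 on the log2 scale. With 12 bound libraries 3 genes of the list fell and none rose. After rescaling 8 genes of the list fell, where 11.4% of all tested genes did.

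Genes of defence against oxidants, metals and iron rose in part. Of 33 glutathione and redox genes 12 rose and 3 fell, where 13.3% and 6.48% of all tested genes did. The falls are near that share. Srxn1, which restores oxidised peroxiredoxins, had 74.7, 105 and 201 RPKM at day 2, against 22.5, 28.3 and 27.8 RPKM in sham (log2 fold 2.14, adjusted p = 2.17e-05). Txnrd1, encoding thioredoxin reductase, had 119, 153 and 156 RPKM at day 2, against 59.8, 46.96 and 29.7 RPKM in sham (log2 fold 1.68), and Gclm, of glutathione synthesis, rose by 1.39. Many such genes answer to NRF2 at the antioxidant response element TGACNNNGC. These letters stood in 25% of 36 promoters of 28 listed genes (of 33 tested), against 12.4% of all promoters. They also stood in 20.8% of the 53 promoters of mitotic genes, so they are not particular to this list. The promoter of Srxn1, at chr2:152105274-152105573 on the plus strand, is shown with its match in capitals, read on the reverse strand and lying after the start of the gene.
Srxn1: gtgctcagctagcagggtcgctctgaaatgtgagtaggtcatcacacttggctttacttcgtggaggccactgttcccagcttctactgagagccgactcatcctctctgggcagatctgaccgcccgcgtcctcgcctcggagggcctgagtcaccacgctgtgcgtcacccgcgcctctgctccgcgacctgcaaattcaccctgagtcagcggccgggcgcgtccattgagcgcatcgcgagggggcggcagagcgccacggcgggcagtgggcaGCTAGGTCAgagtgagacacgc

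Hmox1, the enzyme that opens heme, had 44.7, 76.96 and 84.7 RPKM at day 2, against 14.3, 7.79 and 17.8 RPKM in sham (log2 fold 2.35). Blvrb, encoding biliverdin reductase B, rose by 1.55. Of 16 iron and heme genes 6 rose, and 3 with 12 bound libraries, where 13.3% and 5.77% of all tested genes rose. Lcn2, which binds iron-carrying siderophores, had 112, 200.3 and 375 RPKM at day 2, against 13.4, 9.36 and 33.6 RPKM in sham (log2 fold 3.61). Fth1, the heavy chain of ferritin and among the most abundant transcripts of both groups, had 8451, 15569 and 15941 RPKM at day 2, against 5751, 4746 and 5536 RPKM in sham; its adjusted p was 0.0321 as deposited, 0.123 after rescaling and 0.162 with 12 bound libraries. Of 7 metallothionein and zinc genes 2 rose and 1 fell, where 13.3% and 6.48% of all tested genes did. The metallothionein genes Mt1 and Mt2, which bind zinc and copper, rose by 2.56 and 3.59. Mt2 had 298, 819 and 1493 RPKM at day 2, against 50.8, 57.02 and 70.7 RPKM in sham, so library 1 of day 2 had the least.

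Of 22 cell death genes 9 rose, where 13.3% of all tested genes did. Tnfrsf12a, the receptor of the cytokine TWEAK, had 98.7, 225 and 298 RPKM at day 2, against 18.6, 9.71 and 11.5 RPKM in sham (log2 fold 3.83, adjusted p = 3.33e-06). Mlkl, which carries out necroptosis, rose by 2.19 and the pore-forming Bax by 1.13. Of 18 outputs of p53 and of the integrated stress response 8 rose: Gdf15, a secreted stress hormone, had 17.4, 20.7 and 40.5 RPKM at day 2, against 3.60, 5.98 and 5.23 RPKM in sham (log2 fold 2.23), and the transcription factor genes Atf3 (2.48) and Atf5 (2.07) and the p53 target Phlda3 (2.34) rose.

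While 13.3% of all tested genes rose, and 5.77% with 12 bound libraries, 8 and 6 of 17 chemokine genes did. Beside them 4 of 5 tested neutrophil markers rose, the sum of all 10 in the table being 20.93, 113 and 89.51 RPKM at day 2 and 13.99, 3.81 and 4.07 RPKM in sham; their part in the chemokine and cytokine levels was not tested. Cxcl1, which draws neutrophils, had 10.7, 14.2 and 15.2 RPKM at day 2, against 0.503, 0.859 and 0.255 RPKM in sham (log2 fold 3.77). Ccl20, which draws cells with the receptor CCR6, had 12.5, 14.3 and 7.94 RPKM at day 2, against 0.153, 0.0303 and 0.0285 RPKM in sham (log2 fold 4.37). Ccl2 (3.22) and Cxcl2 (3.53) rose too, Cxcl2 having 27.9 RPKM in library 3 of day 2, against 3.66 and 5.06 RPKM in the others.

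Of 21 cytokine and receptor genes 7 rose (6 with 12 bound libraries). Il24 had 2.72, 3.93 and 9.13 RPKM at day 2, against 0, 0.0311 and 0 RPKM in sham (log2 fold 3.34); it was listed at 0 in 2 of the sham libraries. Il1rn, encoding the antagonist of the interleukin 1 receptor, rose by 3.46, Lif by 2.21, and the macrophage growth factor genes Csf1 and Il34, whose products share a receptor, by 2.08 and 1.44. Of 24 growth factor and receptor genes 6 rose and 1 fell. Hbegf, a ligand of the EGF receptor, had 18.7, 27.1 and 29.1 RPKM at day 2, against 9.27, 10.4 and 10.5 RPKM in sham (log2 fold 1.25), and Egf itself had 4.07, 3.72 and 4.20 RPKM at day 2, against 33.01, 39.6 and 80.5 RPKM in sham (log2 fold -3.41, adjusted p = 2.24e-06). These 2 ligands of 1 receptor went opposite ways in the same libraries. Nrg1 (1.79) and the matricellular genes Ctgf (2.47) and Cyr61 (2.77) rose too. Of 24 genes of TGF-beta, BMP, Wnt and Notch signalling 2 rose, Fst (1.49) and Tgfbr1 (1.08, adjusted p = 0.0376, 0.0947 with 12 bound libraries), where 13.3% of all tested genes rose.

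Transcription factors that answer to stress and those of nephron identity were counted apart. Of 27 AP-1, EGR and KLF genes 14 rose and none fell (8 with 12 bound libraries; 5 to 17 when 1 library was left out). Fosl1, a partner of JUN, had 6.71, 12.6 and 18.5 RPKM at day 2, against 0.0510, 0.202 and 0.0238 RPKM in sham (log2 fold 4.37). Egr1 rose by 2.90 and Jun by 1.77 (adjusted p = 0.00697, up to 0.0621 with 1 library left out). Of 34 nephron identity factors 4 rose and 4 fell (3 and 0 with 12 bound libraries), where 13.3% and 6.48% of all tested genes did. Sox9, a factor of tubule progenitors, had 5.83, 16.98 and 7.92 RPKM at day 2, against 0.253, 0.823 and 0.226 RPKM in sham (log2 fold 3.44), and the chromatin protein gene Hmga1 rose by 2.86. Lhx1, an early nephron factor, had a log2 fold of -0.99 (adjusted p = 0.0206, 0.0977 with 12 bound libraries). Hnf4a, the main factor of proximal tubule identity, had 167, 87.7 and 81.1 RPKM at day 2, against 171, 229 and 94.9 RPKM in sham; the groups overlapped and it did not pass (log2 fold -0.55, adjusted p = 0.219).

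**Figure D2:**
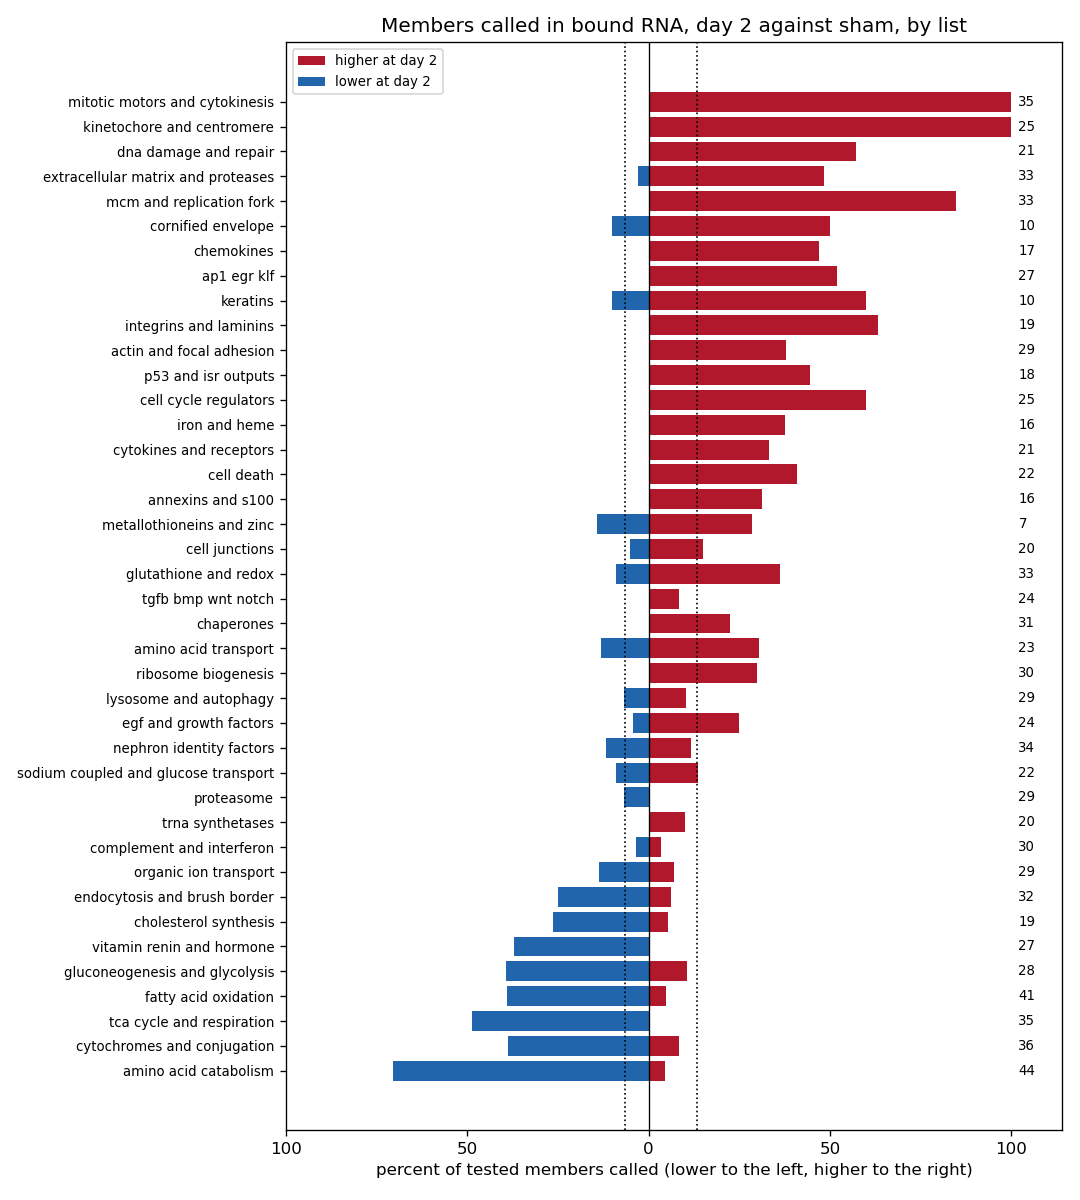
Share of the tested members of 40 gene lists called in bound RNA, lower at day 2 to the left in blue and higher to the right in red, with the number of tested members at the right and lists ordered by median log2 fold. Dotted lines mark the shares over all tested genes, 6.48% lower and 13.3% higher; the lists of kinetochore and of mitotic motor genes reach 100% and amino acid catabolism has 31 of 44 members lower.

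Enzymes of amino acid breakdown let the tubule recover carbon and nitrogen. Of their 44 tested genes 31 fell and 2 rose (median -1.61; 27 fell with 12 bound libraries, 33 after rescaling), where 6.48% of all tested genes fell. Hpd and Hgd, successive enzymes of tyrosine breakdown, were among them. Hpd had 3.41, 0.386 and 4.48 RPKM at day 2, against 54.5, 108 and 21.7 RPKM in sham (log2 fold -4.30), and Hgd had 365, 59.2 and 56.02 RPKM at day 2, against 848, 665 and 626 RPKM in sham (log2 fold -2.72, adjusted p = 0.00034). In Hgd library 1 of day 2 kept a level several times that of the others. Mccc1, of leucine breakdown, had 15.3, 7.25 and 5.05 RPKM at day 2, against 61.8, 46.8 and 46.7 RPKM in sham (log2 fold -2.56, adjusted p = 6.19e-06). Both subunits of propionyl-CoA carboxylase fell, Pcca by 1.85 and Pccb by 1.63 on the log2 scale, and Cbs, which commits homocysteine to cysteine, fell by 3.29.

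Glucose and fat handling fell in part. Over all tested genes 6.48% fell and 13.3% rose, and 2.67% and 5.77% with 12 bound libraries. Of 28 genes of gluconeogenesis and glycolysis 11 fell and 3 rose (7 and 3 with 12 bound libraries). Pcx, encoding pyruvate carboxylase at the entry of gluconeogenesis, had 75.2, 34.8 and 44.3 RPKM at day 2, against 348, 335 and 249.7 RPKM in sham (log2 fold -2.65, adjusted p = 4.78e-05). Fbp1, its later regulated step, had 936, 350.3 and 223 RPKM at day 2, against 2947, 1557 and 1485 RPKM in sham (log2 fold -2.18). The glycolytic Pfkm fell by 1.91. Of 41 fatty acid and ketone genes 16 fell and 2 rose (median -0.60; 10 fell with 12 bound libraries). Acadm, of medium-chain oxidation, had 243, 85.5 and 95.5 RPKM at day 2, against 847, 558 and 709 RPKM in sham (log2 fold -2.46), the ketone-using Oxct1 fell by 2.29 and the peroxisomal oxidase gene Hao2 by 3.39. The 2 that rose bind or store lipid and do not oxidise it. Plin2, a coat protein of lipid droplets, had 68.8, 106 and 178 RPKM at day 2, against 16.1, 13.1 and 24.8 RPKM in sham (log2 fold 2.61), and Fabp1, a carrier of fatty acids, had 50.03, 70.7 and 149 RPKM at day 2, against 4.10, 7.17 and 2.35 RPKM in sham (log2 fold 4.13).

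Of 35 genes of the TCA cycle and respiration 17 fell and none rose (median -0.64), and 10 fell with 12 bound libraries. Over all tested genes 6.48% fell, and 2.67% with 12 bound libraries. Sdha, encoding the flavoprotein of succinate dehydrogenase, had 526, 159 and 89.5 RPKM at day 2, against 988, 897 and 775 RPKM in sham (log2 fold -2.17, adjusted p = 0.000467). Ndufs1, of complex I, had 48.02, 21.03 and 15.97 RPKM at day 2, against 93.6, 69.8 and 96.4 RPKM in sham (log2 fold -1.74), and Suclg1, of succinyl-CoA synthetase, fell by 2.15. Library 1 of day 2 was the highest of the 3 for 22 of the 35 genes.

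Of 36 cytochrome and conjugation genes 14 fell and 3 rose (9 and 3 with 12 bound libraries). Over all tested genes 6.48% fell and 13.3% rose, and 2.67% and 5.77% with 12 bound libraries. Akr1c18, a steroid reductase gene, had 7.83, 4.95 and 9.25 RPKM at day 2, against 113, 212 and 319.9 RPKM in sham (log2 fold -4.70, adjusted p = 1.13e-05), and its relative Akr1c14 fell by 3.78. Akr1c21 had 1664, 256 and 169 RPKM at day 2, against 2266, 1811 and 1168 RPKM in sham; library 1 of day 2 lay within the sham range, and the fall (log2 fold -2.02, adjusted p = 0.0231) was lost with 12 bound libraries (0.08). Cyp2d9 (-3.47), Cyp2d12 (-3.33) and the oxysterol hydroxylase gene Cyp7b1 (-3.09) fell; reads of the Cyp2d and Akr1c families may be split among near-identical copies. Cyp24a1, which inactivates vitamin D, had 242, 199 and 136 RPKM at day 2, against 12.9, 32.96 and 8.23 RPKM in sham (log2 fold 3.58). Of 27 genes of vitamin, hormone and related small-molecule handling 10 fell and none rose. Miox, which opens inositol and is nearly specific to kidney, had 2452, 439.8 and 213 RPKM at day 2, against 5489, 5824 and 3119.8 RPKM in sham (log2 fold -2.92, adjusted p = 0.0024), and the methyltransferase gene Inmt fell by 3.73. The lipid-binding Sec14l3 fell by 3.40.

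Carriers of the brush border move filtered solutes back into the cell. Of 22 sodium-coupled and glucose transport genes 3 rose and 2 fell, shares near the 13.3% and 6.48% over all tested genes. Both falls were phosphate carriers of the brush border: Slc34a1 had 259, 153 and 121 RPKM at day 2, against 605, 528 and 538 RPKM in sham (log2 fold -1.72, adjusted p = 0.0045) and Slc34a3 fell by 1.79 (adjusted p = 0.0147, up to 0.1 with 1 library left out). The housekeeping phosphate carrier gene Slc20a1 had 4.54, 10.3 and 8.85 RPKM at day 2, against 3.16, 3.01 and 2.57 RPKM in sham (log2 fold 1.23). Slc5a2, the main glucose carrier of the early tubule, had 15.2, 12.1 and 7.53 RPKM at day 2, against 16.2, 21.9 and 13.3 RPKM in sham and did not pass (adjusted p = 0.338, log2 fold -0.57).

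Of 29 organic ion transport genes 4 fell and 2 rose, where 6.48% and 13.3% of all tested genes did. The uptake carriers Slc22a26 (-2.71) and Slc22a7 (-2.32, up to an adjusted p of 0.137 with 1 library left out) fell. The rises were the efflux pumps Abcc2, which had 17.2, 19.9 and 26.2 RPKM at day 2, against 5.96, 8.24 and 6.40 RPKM in sham (log2 fold 1.54), and Abcc4 (1.17). Of 23 amino acid and related carriers 7 rose and 3 fell (4 and 1 with 12 bound libraries). Slc7a5, which feeds leucine to growing cells, had 2.40, 4.71 and 4.59 RPKM at day 2, against 0.576, 1.52 and 0.383 RPKM in sham (log2 fold 1.77), and the lactate carrier Slc16a1 rose by 1.85. The basolateral carrier Slc7a7 fell by 1.29 and the S3 carrier Slc7a13 by 2.19 (adjusted p = 0.0166, 0.0519 with 12 bound libraries). Of 32 endocytosis and brush border genes 8 fell and 2 rose. Lrp2, encoding megalin, had 25.6, 17.2 and 10.9 RPKM at day 2, against 40.3, 62.3 and 48.8 RPKM in sham (log2 fold -1.53), its partner Cubn fell by 1.15 (adjusted p = 0.0316, up to 0.119 with 1 library left out) and the membrane protease gene Mep1b by 3.93. Vil1, which bundles actin in microvilli, fell by 1.39 (adjusted p = 0.00685, 0.0685 with 12 bound libraries). The endosomal chloride exchanger gene Clcn5 rose by 0.89 (adjusted p = 0.00643, 0.0591 after rescaling).

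Matrix genes rose in 16 of 33 cases and fell in 1 (9 and 0 with 12 bound libraries). Col1a1 and Col3a1, fibrillar collagens that fibroblasts make in quantity, were among the largest: Col1a1 had 110.2, 347 and 41.6 RPKM at day 2, against 4.02, 3.24 and 2.36 RPKM in sham (log2 fold 5.01), and Col3a1 rose by 4.55. Library 2 of day 2 was the highest for both, and it also held the highest summed level of 14 stroma markers. Both collagen genes are themselves in that list, so the sum is not separate from their levels. The stroma sum was 501.9, 1244 and 331.3 RPKM at day 2 and 246.2, 199.6 and 193.1 RPKM in sham. Of 13 tested stroma markers 5 rose (2 with 12 bound libraries), the smooth muscle actin gene Acta2 by 1.90 (adjusted p = 0.0227, 0.083 with 12 bound libraries). None of the 14 was at 0 in all 6 libraries, and their part in the rise of matrix genes was not tested. Of 30 complement and interferon genes 1 rose and 1 fell, where 13.3% and 6.48% of all tested genes did; C3, the central complement protein, had 15.4, 18.3 and 19.7 RPKM at day 2, against 3.72, 7.13 and 2.69 RPKM in sham (log2 fold 1.96).

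Markers of blood-borne cells were summed per library, and their calls stand beside 13.3% of all tested genes that rose. The neutrophil sum is given above with the chemokines, and Elane was at 0 in all 6 libraries. Of 5 tested, 4 rose (2 with 12 bound libraries): Il1r2 had 3.67, 3.03 and 3.66 RPKM at day 2, against 0.0326, 0 and 0 RPKM in sham (log2 fold 2.95) and Csf3r rose by 2.00. The sum was higher in unbound RNA of the same mice, at 97.28, 285.6 and 269.9 RPKM at day 2 and 60.83, 18.34 and 15.61 RPKM in sham. Of 16 macrophage markers 3 rose, Cd68 by 2.48 (adjusted p = 0.0181, 0.0637 with 12 bound libraries), and their sums overlapped, at 230.9, 524.5 and 181 RPKM at day 2 and 271.7, 335.7 and 182.9 RPKM in sham. The erythroid sum was 17.86, 100.5 and 35.09 RPKM at day 2 and 10.22, 165.1 and 9.157 RPKM in sham, highest in library 2 of both groups. None of 8 lymphocyte, 13 endothelial and 5 erythroid markers tested was called; Kdr, of endothelium, had a log2 fold of -0.78 (adjusted p = 0.0581).

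Markers of other nephron parts were counted in the same way, beside 13.3% of all tested genes that rose and 6.48% that fell. Of 12 distal convoluted tubule markers 3 fell: Pvalb, encoding parvalbumin, had 0.875, 0.563 and 2.13 RPKM at day 2, against 22.2, 47.2 and 37.3 RPKM in sham (log2 fold -4.46), and the calcium-binding Calb1 fell by 1.63. Slc12a3, the sodium chloride carrier of the same segment, had 26.6, 25.7 and 21.7 RPKM at day 2, against 27.00, 86.1 and 55.5 RPKM in sham and did not pass at a log2 fold of -1.03 (adjusted p = 0.06; 0.0211 after rescaling). Of 12 thick ascending limb markers 3 fell, Egf among them, and 1 rose. Umod, the most abundant protein of urine, had 524, 459 and 262 RPKM at day 2, against 302, 551 and 511 RPKM in sham and did not pass (log2 fold -0.14, adjusted p = 0.819); its sign turned without library 3 of day 2 (0.16) or library 2 of sham (0.02). Of 7 thin limb markers 1 rose, near the share over all tested genes. This was Cldn4, given above with the junction genes, which had 24.3, 17.7 and 21.4 RPKM at day 2, against 1.71, 1.38 and 14.2 RPKM in sham. Of 11 intercalated cell markers 3 fell and 1 rose. The proton pump gene Atp6v1b1 fell by 1.80 and the anion exchanger gene Slc4a1 by 1.80.

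Library 3 of both groups stood apart in collecting duct and podocyte markers. The principal cell sum was 383.3, 282.2 and 889.3 RPKM at day 2 and 384, 719.8 and 2288 RPKM in sham, and the podocyte sum 159.9, 202.3 and 616.2 RPKM at day 2 and 294.1, 347.7 and 1241 RPKM in sham. In unbound RNA of the same mice these sums lay between 182.5 and 243.4 RPKM and between 55.96 and 72.93 RPKM. Aqp2, the water channel of the collecting duct, had 36.8, 25.6 and 348 RPKM at day 2, against 39.2, 114 and 350.1 RPKM in sham; it did not pass (log2 fold -0.75), and was 0.05 without library 3 of sham and -1.91 without library 3 of day 2 (adjusted p = 0.0356). Of 11 principal cell markers 1 fell, Aqp3 (-1.78, adjusted p = 0.0379, 0.148 with 12 bound libraries). Of 12 podocyte markers 1 fell, Clic3 (-1.72, adjusted p = 0.0205, 0.0941 with 12 bound libraries). Both counts are near the 6.48% of all tested genes that fell.

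**Figure D3:**
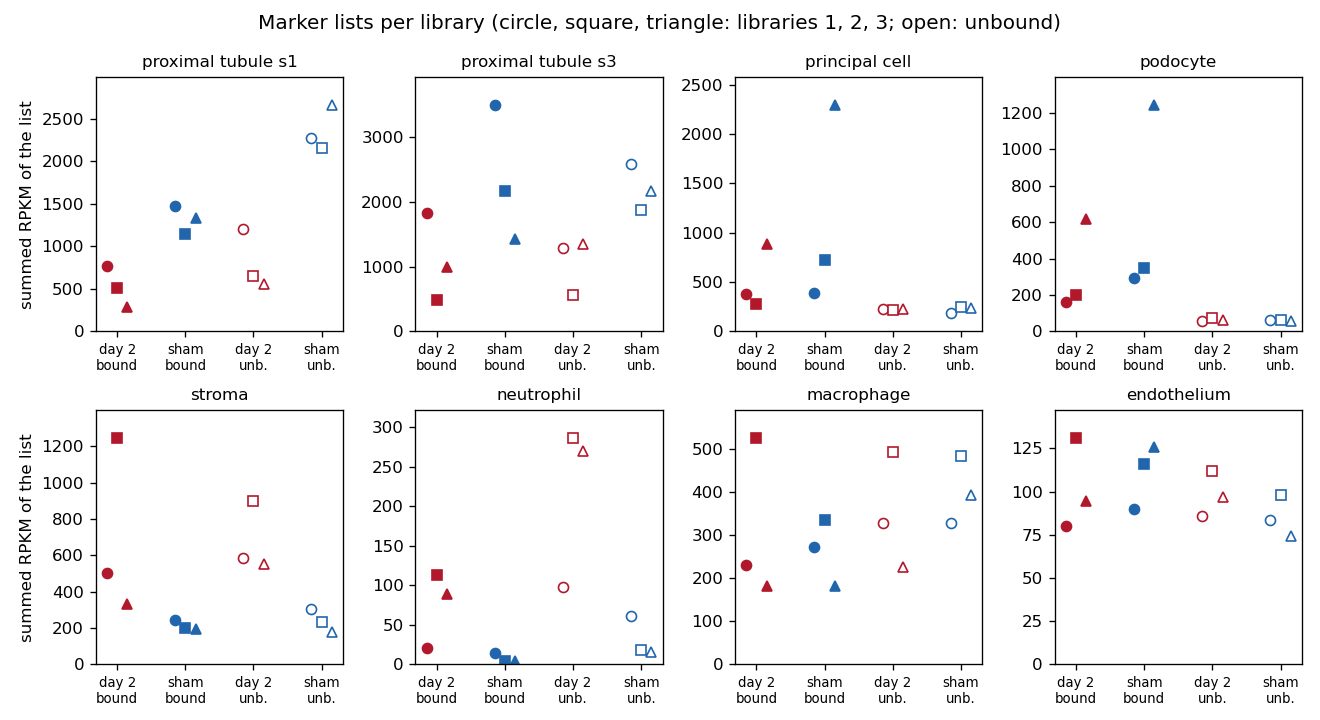
Summed RPKM of 8 marker lists per library on linear axes that start at 0, day 2 in red and sham in blue, bound RNA filled and unbound RNA open. Library 3 of both groups (triangle) is highest for principal cell and podocyte markers in bound RNA, and library 2 of day 2 (square) for stroma markers.

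Proximal tubule markers were split into those of the early S1 and the late S3 segment. Of 10 S1 markers 5 fell and of 10 S3 markers 6 fell (4 and 3 with 12 bound libraries, 2 to 6 and 2 to 8 when 1 library was left out). Over all tested genes 6.48% fell, and 2.67% with 12 bound libraries. The S1 sum was 766.7, 512.6 and 290.1 RPKM at day 2 and 1474, 1143 and 1332 RPKM in sham, so the groups did not overlap. The S3 sum was 1820, 481.2 and 999.1 RPKM at day 2 and 3483, 2157 and 1425 RPKM in sham, where library 1 of day 2 lay above library 3 of sham. Most of the S3 sum was 1 gene, Acy3, which averaged 998.6 RPKM at day 2 and 2132 RPKM in sham. Acy3 was not called (log2 fold -1.22, limma adjusted p = 0.0657), so the sum says little of the other S3 markers.

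Unbound RNA of the same mice was set beside these changes. There 2030 genes were called between day 2 and sham, 14.8% of those tested (9.76% higher and 5.04% lower). Of the 2718 genes called in bound RNA, 2603 had the same sign in unbound RNA and 1314 were called there too. The test of the difference between the changes called 0 genes by limma, 0.0% of those tested (758 had an unadjusted p under 0.05; smallest adjusted p 0.134), with a median standard error of 0.428. With each mouse as a block it called 11, or 0.0802% of those tested, 10 of which were lower in bound RNA at day 2 relative to unbound. The named ones were Ranbp2, Snrnp200, Spire2, Pls3, Mpp5, Iqgap2, Rapgef3, Tollip, Pak1 and Arhgap18.

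As background, the product of Spire2 nucleates actin and that of Pls3 bundles it, while those of Iqgap2, Pak1, Rapgef3 and Arhgap18 act with small GTPases. Rapgef3, encoding the cAMP-activated exchange factor EPAC1, had 57.4, 18.2 and 16.97 RPKM at day 2, against 172, 149.6 and 93.5 RPKM in sham in bound RNA (log2 fold -2.33), while in unbound RNA it had 9.22, 9.67 and 8.70 RPKM at day 2 and 8.37, 6.98 and 10.5 RPKM in sham. The difference between the changes was -2.44 on the log2 scale (adjusted p = 0.0183 with the block, 0.134 without). Snrnp200, a helicase of the spliceosome, had 26.8, 13.1 and 8.42 RPKM at day 2, against 76.3, 72.4 and 47.9 RPKM in sham in bound RNA, and 9.27, 8.52 and 6.89 RPKM at day 2 and 10.8, 11.01 and 10.1 RPKM in sham in unbound RNA. Pls3, encoding the actin-bundling plastin 3, had a log2 fold of -1.31 in bound RNA and 1.53 in unbound RNA, and Ranbp2, of the nuclear pore, -1.61 and 0.74. The bound groups of Pls3 overlapped (limma adjusted p = 0.0352, 0.105 with 12 bound libraries).

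Over all tested genes 6.48% fell in bound and 5.04% in unbound RNA. Respiration genes fell in 17 of 35 cases in bound RNA and in 3 of 35 in unbound RNA, the latter near that share, with medians of -0.64 and -0.33. Amino acid breakdown genes fell in 31 and 21 of 44 cases, with medians of -1.61 and -0.90. No member of either list was called in the test of the difference, with or without the block, so the fractions are not shown to differ in them. Ndufs1 had a log2 fold of -1.74 in bound and -0.25 in unbound RNA (adjusted p of the difference = 0.643, 0.104 with the block), and Hgd -2.72 and -0.72 (0.81, 0.14 with the block). The 35 mitotic genes had medians of 2.94 in bound and 2.90 in unbound RNA.

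**Figure D4:**
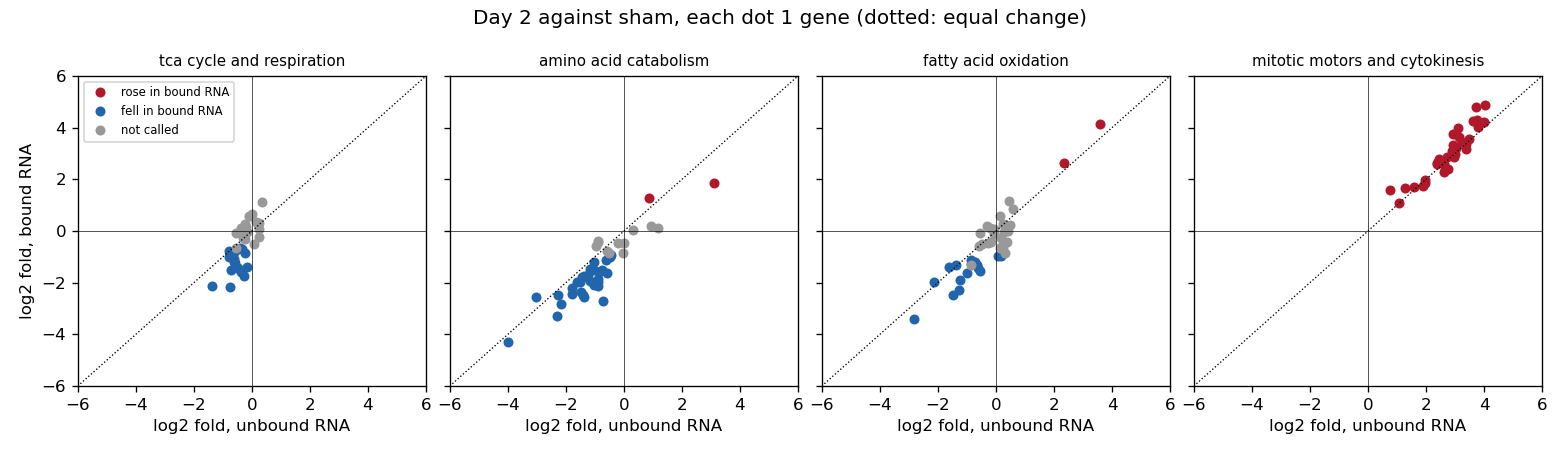
Log2 fold of day 2 against sham in bound RNA (vertical) and unbound RNA (horizontal) for the tested members of 4 lists; each dot is 1 gene, coloured by its call in bound RNA, and the dotted line marks equal change. Mitotic genes lie near the line. Most genes of respiration and amino acid breakdown that fell lie under it, but they were picked by their bound value, which favours that side. No member of either list was called in the test of the difference.

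Bound RNA of other mice at day 7 was set against day 2, which asks how the change differed later. In that comparison 973 genes were called, 7.09% of those tested, 488 higher at day 7 (3.56%) and 485 lower (3.53%). It shares its day 2 libraries with the comparison above, so the values of both are given side by side only. Fabp1 averaged 4.54 ± 2.44 RPKM in sham, 89.9 ± 52.2 RPKM at day 2 and 2.35 ± 1.82 RPKM at day 7 (SD, n = 3 each; day 7 minus day 2 -5.03 on the log2 scale, limma adjusted p = 5.53e-05). Rrm2 averaged 5.76 ± 5.63 RPKM in sham, 91.3 ± 37.3 RPKM at day 2 and 6.65 ± 2.27 RPKM at day 7 (-3.65, adjusted p = 0.000485). Both were thus high at day 2 alone among these 3 groups.

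The mitotic gene Ccnb2 averaged 0.851 ± 0.329 RPKM in sham, 38.9 ± 6.00 RPKM at day 2 and 6.53 ± 1.74 RPKM at day 7 (-2.50, adjusted p = 0.0046). Slc34a1, the phosphate carrier, averaged 556.9 ± 41.7 RPKM in sham, 178 ± 72.0 RPKM at day 2 and 536 ± 92.6 RPKM at day 7 (1.65, adjusted p = 0.014). Sdha averaged 886.8 ± 107 RPKM in sham, 258 ± 235 RPKM at day 2 and 189 ± 8.90 RPKM at day 7, and was not called between days 7 and 2 (-0.05, adjusted p = 0.96). Havcr1 was not called between them either, at 2.87 ± 2.38 RPKM in sham, 125 ± 80.9 RPKM at day 2 and 170 ± 67.2 RPKM at day 7 (0.61, adjusted p = 0.599). Ccl2, encoding a chemokine that draws monocytes, was higher still at day 7: it averaged 0.605 ± 0.667 RPKM in sham, 10.00 ± 6.69 RPKM at day 2 and 124 ± 59.0 RPKM at day 7 (3.61, adjusted p = 0.00356).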

How the data were processed

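The 12 mice gave bound and unbound RNA, in 8 groups of 3 libraries. The submitters' processing notes name STAR 2.0.4b, featureCounts 1.4.5 of Subread, and edgeR. Genome build, annotation and strand are not given in the sources used here, so reads of a gene and of its antisense partner cannot be told apart. The authors deposited RPKM, with 1 column per library. After 1081 repeated, identical lines were dropped, 40750 genes were left, 14673 of them at 0 in every library. Their counts were not recovered, so no count test was run: with exon lengths of GENCODE M21, 71.3% to 78.2% of values up to 50 reads were whole within 0.02 reads (4% by chance), which gave depths of 15720000 to 24650000 reads.

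A linear model with 8 group means was fitted by limma 3.58.1 in R 4.3.3 to every library on the log2 (RPKM + 0.5) scale, with a trend in the moderated variances. Genes entered with 1 RPKM or more in 3 libraries or more. Benjamini-Hochberg adjustment ran over 13721 genes within each comparison, with 0.05 as threshold. In simulated data for day 2 against sham in bound RNA, run on 13721 genes, 33% of 100 planted 2-fold and 87% of 100 planted 4-fold changes were recovered, with 8 false calls. The simulation gave all groups the same spread per gene, taken from all 24 libraries. The bound libraries compared varied more than unbound ones, so these numbers do not give the recovery or false calls of the real comparison.

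The comparison, its 54 gene lists (14 of cell type markers) and the rule for named genes were chosen with earlier results of these data known. The rule took the 12 largest rises and falls among calls without overlap that reached a mean of 5 RPKM, the 5 members of each list with the smallest p and its first 3, genes called in the difference between fractions, and the 6 calls at 20 RPKM or more with the widest relative spread at day 2. That difference called none, so genes called in it with a mouse block are given, chosen after their values were seen. Some genes the rule selects are not given. Lists are described by counts, without a set test.

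Bound and unbound libraries of the same number were taken to come from the same mouse. Their deviations from group means correlated at 0.30 to 0.43 in each of 6 pairs, and at -0.10 or less with other numbers. Deviations cancel within a group, so the low values with other numbers partly follow from the first. Bound libraries of day 2 and sham with the same number, from different mice, correlated at 0.26, 0.06 and 0.34. The correlations therefore cannot show that a mouse was shared. Values with a mouse block therefore stand beside comparisons of fractions. Alternatives were other pseudocounts, filters, scalings and blocks, fewer libraries in the fit, array weights, and leaving out each library in turn. Promoters are those of RefSeq, GRCm38.p6.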

Additional observations from a re-analysis of the deposited data

Results flagged for a closer look

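Each gene given here had a level in bound RNA that differed between day 7 and day 2 by limma, which 7.09% of tested genes did. Values are log2 folds of day 7 over day 2, and no explanation was tested.

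Among keratin, cornified envelope and claudin genes, those lower at day 7 were Krt20 at -1.89, Krt19 at -2.37, Sprr2f at -4.54, Sprr2g at -4.10, Sprr1a at -1.91, Crct1 at -2.71 and Cldn4 at -2.47. Among genes of replication, repair and division, those lower were Gins2 at -1.69, Chaf1b at -1.50, Rrm2 at -3.65, Mcm2 at -1.72, Tk1 at -2.40, Cenpa at -1.98, Cenpf at -1.73, Ccnb2 at -2.50, Birc5 at -2.32, Kif22 at -1.99, Cdca8 at -1.53, Foxm1 at -2.13, Ccne1 at -2.12, E2f8 at -1.86 and Brca1 at -1.37. Among genes of oxidant, metal and iron handling, those lower were Gsta1 at -3.33, Hmox1 at -1.18, Blvrb at -1.26, Lcn2 at -3.25, Srxn1 at -1.67, Txnrd1 at -1.37, Mt1 at -1.90 and Mt2 at -3.01. Among signals, Hbegf was at -1.15, Ctgf at -2.68 and Il24 at -2.89, whereas Ccl2 was at 3.61 and C3 at 1.62.

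Genes of lipid, vitamin D and solute handling that were lower at day 7 were Fabp1 at -5.03, Plin2 at -1.15, Apoc2 at -3.10, Cyp24a1 at -3.10, Abcc2 at -1.004, Slc7a5 at -1.44 and Clcn5 at -0.94. Genes that had fallen at day 2 and were higher at day 7 were Akr1c18 at 4.34, Mep1b at 4.001, Akr1c14 at 2.52, Inmt at 3.78, Cyp2d9 at 2.04, Egf at 1.59, Sec14l3 at 2.74, Hao2 at 1.95, Cyp51 at 1.86, Slc34a1 at 1.65, Slc22a26 at 2.18, Slc22a7 at 4.09, Slc7a13 at 2.83 and Cyp7b1 at 3.60. Lower at day 7 though they had already fallen at day 2 were Spire2 at -0.73, Mpp5 at -0.65 and Arhgap18 at -1.14. The day 2 fall of Spire2 was small (log2 fold -0.55, limma adjusted p = 0.0429, 0.146 with 12 bound libraries). For Arhgap18 the day 2 and sham groups overlapped (limma adjusted p = 0.00542, 0.0497 with 12 bound libraries).

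With each mouse as a block, the day 2 change in bound RNA minus that in unbound RNA was -2.34 for Ranbp2, -1.76 for Snrnp200, -1.45 for Spire2, -2.83 for Pls3, -1.01 for Mpp5, -2.17 for Iqgap2, -2.44 for Rapgef3, -1.60 for Tollip, -1.10 for Pak1 and -2.05 for Arhgap18, on the log2 scale. Their change differed between fractions by limma with the block, and none was called without it.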

How the results depend on the processing

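Day 2 against sham in bound RNA called 1159 genes with 12 bound libraries, 463 with the 6 libraries compared, 5611 with array weights and 1349 to 4073 with 1 library left out. The share of calls that were higher was 46.6% after median-ratio rescaling, 50.7% after quantile normalization, 82.3% with the 6 libraries and 60.9% to 70.7% with 1 left out. The difference between fractions called 1 gene with no filter, 366 with array weights, 11 with the mouse block and 0 to 111 with 1 library left out. Day 7 against day 2 called 285 genes with 12 bound libraries, 406 with the libraries compared, 4035 with array weights, 128 with the replicate block and 427 to 1429 with 1 left out. Bound against unbound RNA at day 2 called 145 genes with no filter, 0 with the libraries compared, 1840 with array weights, 0 with the replicate block, 1595 with the mouse block and 57 to 1191 with 1 left out; in sham it called 2699 to 4149 with 1 left out. Array weights were estimated gene by gene, since the default did not converge. Umod was at 0.00 with array weights and between -0.41 and 0.16 with 1 library left out, and Aqp2 between -1.91 and 0.05.

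The numbers of day 2 and sham do not pair mice: r was 0.26, 0.06 and 0.34, each higher than with other numbers, as a hint from the data. A replicate block gave 880 calls. Of 165 genes with values, 24 lost the call with 12 bound libraries and 74 with the libraries compared; 0 changed direction in either. The share of mitotic promoters with TTTGAA was 66.0%, and 69.8% when TTCGAA was counted too. Depth was inferred, so counting error per gene was not computed, and low genes such as Il24 and Il1r2 rest on few reads.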
